A study of Mus musculus with 2 samples.

Results

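The Notch genes described here are the 4 receptor genes Notch1, Notch2, Notch3 and Notch4 and the 5 ligand genes Dll1, Dll3, Dll4, Jag1 and Jag2 of the mouse. They were taken by name, and all 9 were found once each among the 21755 protein-coding genes that GENCODE M21 places on chromosomes 1 to 19 and X of GRCm38. Their surroundings were read from a list of 7841 domain boundaries in immediate neuronal precursors. These precursors are the dividing cells of the olfactory epithelium whose daughters become olfactory sensory neurons. The cells were primary, came from untreated FVB/NTac pups of mixed sex carrying an Ngn1-GFP reporter, and were sorted by fluorescence, although the label of the sorting plots speaks of immature sensory neurons. In situ Hi-C, which ligates neighbouring DNA ends in fixed nuclei after cutting with DpnII, was performed on 2 biological replicates of 2200000 and 2100000 cells. There was no second condition. The list holds no expression values, so the cell type could not be checked against markers, and whether each Notch gene was active in these cells is not known from it.

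Notch signalling passes between touching cells. A Delta-like or Jagged ligand on one cell binds a Notch receptor on the next, the receptor is cut by an ADAM protease and then by γ-secretase, and its freed intracellular part enters the nucleus, binds the DNA-binding protein RBPJ and switches on repressor genes of the Hes and Hey families. In many neural tissues this holds back differentiation in the cells around a new neuron, and proneural factors such as Neurog1 raise Delta-like ligands in the cell that differentiates.

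A boundary is a 5 kb interval across which contacts are depleted, and the stretch between neighbouring boundaries is called a domain here. Each boundary carries the authors' score and a class, which is strong from a score of 0.5 and weak from 0.2 up to that value. The scale of the score is not stated, and a higher score is read here as a stronger boundary only because the classes divide at that value. The nearest boundary on each side of a gene's transcription start site (TSS, the 5′ end of the gene model) is called its border, with the side decided by the middle of the interval. Boundaries were called on the matrix combined from both replicates, so the values below carry no replicate error, and the depth behind them is unknown. Positions are resolved to 5 kb. No test was made: the 9 genes are described beside all protein-coding genes, of which 21528 had a border on each side.

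The domains of the Notch genes covered a wide range of lengths around that of an ordinary gene. Their median was 255 kb, from 90 kb at Notch4 to 640 kb at Dll1, beside a median of 270 kb over all protein-coding genes (quartiles 190 and 390 kb). Of the 9, 5 lay in domains shorter than that median and 4 in longer ones. Jag1, counted among the shorter ones, starts inside a boundary interval, and its domain rests on the side decided by the middle of that interval. The domain on its other side was 870 kb long, so the median and this split depend on that choice. The order of the medians turned without the weaker boundaries, with 585 kb for the Notch genes and 475 kb for all protein-coding genes when strong boundaries alone were used, and 640 and 510 kb at or above the median score. The 4 receptors had a median of 230 kb and a range of 90 to 290 kb, and the 5 ligands a median of 390 kb and a range of 110 to 640 kb, so the groups overlapped. Receptor gene bodies were longer, with a median of 52.4 kb, than those of ligands, with a median of 10.2 kb.

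**Figure D1:**
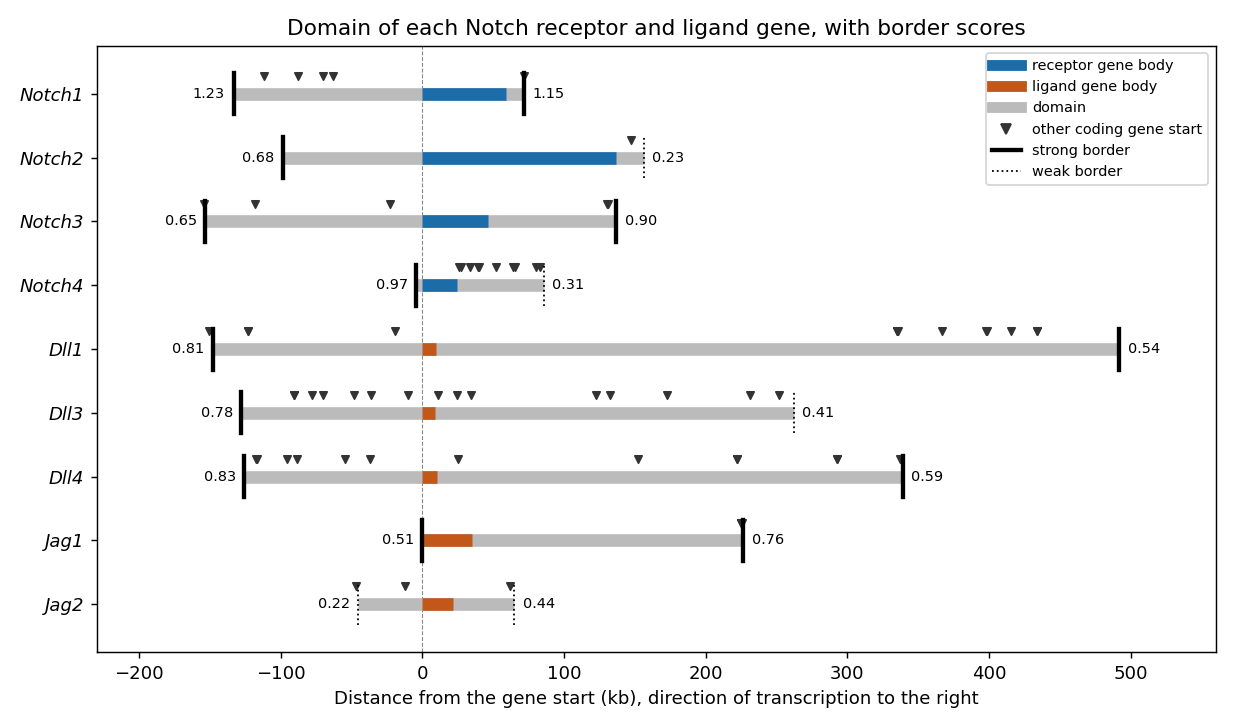
Domain of each of the 9 genes, drawn in the direction of transcription with distance from the gene start in kb; grey bars are domains, coloured bars gene bodies, triangles the starts of other protein-coding genes, and black lines the facing edges of strong (solid) and weak (dotted) borders with their scores. Jag1 begins at its upstream border and Notch4 4.27 kb from it, and Dll1 has the longest domain, 640 kb.

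**Figure D2:**
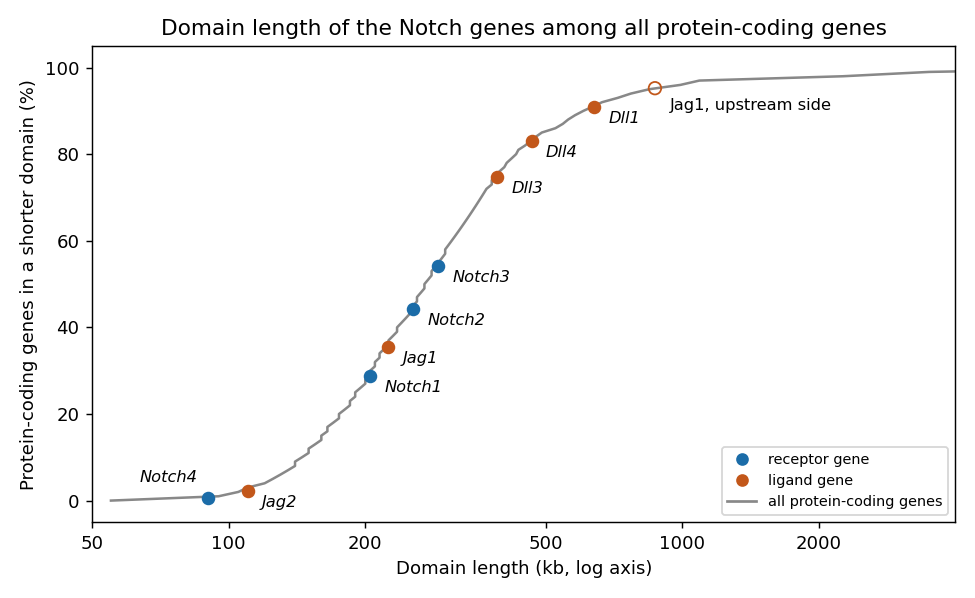
Domain length in kb (log axis) against the percentage of protein-coding genes in a shorter domain; points are the 9 genes and the line is all protein-coding genes. Notch4 and Jag2 lie at the low end at 90 and 110 kb, Dll1 at 640 kb, and the open circle is the domain of 870 kb on the upstream side of Jag1.

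Only Jag1 and Notch4 started within 10 kb of a boundary. That is 2 of 9, beside 16.4% of all protein-coding genes, and a count this small is close to that background. Windows of 25 and 50 kb held 2 and 3 of the 9, beside 27.8 and 46.3% of all protein-coding genes. With strong boundaries alone, 2 of 9 started within 10 kb, beside 10.6%. The distances were 0 kb at Jag1 and 4.27 kb at Notch4, and the next was 45.2 kb at Jag2, so no gene lay close to the 10 kb limit. The value of Jag2 rests on weak borders, and with strong boundaries alone, or those at or above the median score, it was 285 kb. At or above the median score the boundary at the Jag1 start also drops out, and its distance was 227 kb. The other 6 started between 71.7 kb (Notch1) and 148 kb (Dll1) from a boundary. The median over the 9 was 98.5 kb, beside 54.9 kb for all protein-coding genes with a border on each side. The same 6 began well inside their domains, and for each of them at least 60.6% of protein-coding genes start nearer to a boundary. That lowest share belongs to Notch1 at its gene start. From its second coding transcript start the distance was 58.8 kb, close to the 52nd percentile of all protein-coding genes (58.3 kb).

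Notch1 encodes the receptor best known for keeping neural progenitors undifferentiated, and its borders had the highest scores of the 9 genes. The gene occupies chr2:26457903-26516663 on the minus strand. Its domain of 205 kb (chr2:26445001-26650000) was shorter than the median, and 28.7% of protein-coding genes lay in a shorter one. The upstream border had a score of 1.23, which exceeds 88.9% of all boundaries, and the downstream border one of 1.15, which exceeds 86.6%. No border of any other Notch gene reached these values. The downstream border overlapped exons of Sec16a, which organises export sites of the endoplasmic reticulum, and lay 12.9 kb beyond the 3′ end of Notch1. The upstream border was intergenic. The domain held 5 other protein-coding starts. They were those of Egfl7, a secreted factor of blood vessels, Agpat2, an acyltransferase of lipid synthesis, Sec16a, Fam69b and Gm20532, and the nearest, Egfl7, began 63.4 kb from Notch1. A second coding transcript of Notch1 starts 12.8 kb further into the gene, in the same domain.

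Notch2, a receptor needed in kidney, liver and bile duct development, filled more of its domain than any other Notch gene. Its body on chromosome 3 (chr3:98013527-98150361, plus strand) is 137 kb long and took up 53.7% of a domain of 255 kb (chr3:97915001-98170000). The border upstream was strong, with a score of 0.680, and overlapped exons of Sec22b, which encodes a membrane fusion protein. The border downstream was intergenic and weak, with a score of 0.235, and only 9.23% of all boundaries had a lower one. It lay 19.6 kb past the 3′ end of the gene. The one other coding start was that of Adam30, a member of the ADAM metalloprotease family, 147 kb from the start of Notch2.

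Notch3, the receptor of vascular smooth muscle, sat near the middle of an ordinary domain. The gene lies at chr17:32120820-32166852 on the minus strand, in a domain of 290 kb (chr17:32030001-32320000). Its start was 153 kb from the upstream border and 137 kb from the downstream border. Both were strong, with scores of 0.654 and 0.903. The upstream border overlapped exons of Akap8 and Akap8l, which encode nuclear anchoring proteins, and the start of Akap8 lay inside it. The downstream border lay in an intron of Hsf2bp, a gene of meiotic recombination. The domain also held the starts of Ephx3, an epoxide hydrolase, Hsf2bp and Rrp1b, and Ephx3 was the nearest at 22.7 kb.

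Notch4, a receptor of blood vessel lining, had the shortest and most crowded domain. It lies at chr17:34564268-34588503 on the plus strand, within the major histocompatibility region. Its domain of 90 kb (chr17:34560001-34650000) was one of the shortest around any gene, with 0.632% of protein-coding genes in a shorter one. The gene began 4.27 kb from its upstream border, which was intergenic and strong with a score of 0.970. It was the protein-coding gene nearest to that border. The downstream border, in exons of the stress factor gene Atf6b, was weak with a score of 0.310. In between stood 10 other coding starts, or 12.2 starts per 100 kb with Notch4, beside a median of 2.18 per 100 kb over all protein-coding genes. The nearest were Gpsm3, a modulator of G protein signalling, the homeobox gene Pbx2, the receptor gene Ager, the ubiquitin ligase gene Rnf5, Agpat1 and Egfl8, between 25.5 and 51.7 kb away. Fkbpl and Atf6b began 5.24 and 2.86 kb from the downstream border.

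The Notch1 and Notch4 domains held members of the same gene families. Egfl7 and Agpat2 began 63.4 and 87.8 kb from Notch1, and Egfl8 and Agpat1 began 51.7 and 39.99 kb from Notch4, with no boundary in between in either case. The Pbx family was placed differently. Pbx2 shared the domain of Notch4 at 27.0 kb, and Pbx3 lay 7.86 Mb and 34 boundaries from Notch1. Pbx3 was looked up after the genes of these domains had been seen.

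Dll1, the Delta-like ligand of neurogenesis and somite formation, had the longest domain of the 9. The gene occupies chr17:15367354-15376872 on the minus strand, and its body of 9.52 kb made up 1.49% of a domain of 640 kb (chr17:14885001-15525000). Of all protein-coding genes, 91.0% lay in a shorter one. The upstream border was 148 kb from the start, with a score of 0.806, and the downstream border 492 kb away, with a score of 0.539, close to the median of 0.533 over all boundaries. Both were strong. The domain held 13 other coding starts in separate clumps. Fam120b began 19.3 kb from Dll1, the proteasome gene Psmb1 and the TATA-binding protein gene Tbp 123 kb away, and Pdcd2 150 kb away inside the upstream border, while Gm3448 and the dynein light chain gene Tcte3 came next at 335 kb on the other side. Of 64 tiles of 10 kb in this domain, 9 held mostly repeated sequence, more than in the domain of any other Notch gene. By the share of sampled 31-base words found once in the reference, 80.3% of the domain was unique, beside 83.2% of the genome. Contacts are hard to place in repeated sequence, and its part in the length of this domain was not tested.

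Dll3, a divergent ligand of somite formation that acts inside the sending cell, shared its domain with more genes than any other member. It lies at chr7:28293553-28302238 on the minus strand, in a domain of 390 kb (chr7:28040001-28430000) with 15 other coding starts. It was also the member with the closest protein-coding neighbours. The mitochondrial import gene Timm50 began 9.83 kb and the selenoprotein gene Selenov 11.1 kb from it, followed by Eid2b and Eid2, which encode inhibitors of differentiation, the elongation factor gene Supt5 and the ribosomal protein gene Rps16, up to 48.4 kb away. The upstream border was strong, with a score of 0.781, and lay in an intron of Samd4b. The downstream border was intergenic and weak, with a score of 0.407. Of 39 tiles of 10 kb, 2 held mostly repeated sequence.

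Dll4, the ligand of sprouting blood vessels, lay in a domain of 465 kb (chr2:119200001-119665000) that exceeded those of 83.0% of protein-coding genes. The gene is at chr2:119325784-119335962 on the plus strand. Both borders were strong. The upstream one had a score of 0.828 and lay in an intron of Dnajc17, 126 kb from the start, and the downstream one had a score of 0.590 and was intergenic, 339 kb away. Of the 13 other coding starts, the nearest was Chac1, 25.4 kb from Dll4, whose product breaks down glutathione and is known to block maturation of Notch1. The next were the vesicle sorting gene Vps18, the small GTPase gene Rhov, the protease inhibitor gene Spint1, Ppp1r14d and Dnajc17, at up to 117 kb. Zfyve19 and Dnajc17 stood at the upstream border, 8.62 and 8.80 kb from it, and the complex I assembly gene Ndufaf1 at the downstream border, 2.17 kb from it.

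Jag1, the ligand whose human counterpart is often mutated in Alagille syndrome, was the only member that started inside a boundary interval. Of all protein-coding genes, 5.07% did so. The gene is at chr2:137081456-137116644 on the minus strand, and its first 1.64 kb overlapped the interval (chr2:137115001-137120000). Jag1 was also the only member whose body was overlapped by a boundary, beside 17.7% of all protein-coding genes. That boundary was strong by class, but its score of 0.514 was close to the 0.5 limit and below the median boundary. The gene body and 3 other coding starts lay on one side of it, in a domain of 225 kb (chr2:136890001-137115000). Those starts, of Mkks, a chaperonin-like gene of Bardet-Biedl syndrome, Slx4ip and AL731706.1, were all at the far end, 225 kb from Jag1 and within 1.39 kb of a border with a score of 0.761. On the other side lay a domain of 870 kb (chr2:137120001-137990000) with no protein-coding start and 4 long noncoding genes, and 97.5% of all domains were shorter. It ended at a strong boundary with a score of 1.35, 873 kb from the Jag1 start. Of the domain on the upstream side 90.5% was unique sequence, and of the domain holding the gene 87.4%, both above the genome value.

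The sequence just before the Jag1 gene start lies inside this boundary interval, and is shown because it is where transcription unit and boundary meet. These are the 126 bases of chr2:137116645-137116770 (GRCm38.p6, from RefSeq), written 5′ to 3′ on the minus strand, with CG dinucleotides in capitals.
Jag1 upstream: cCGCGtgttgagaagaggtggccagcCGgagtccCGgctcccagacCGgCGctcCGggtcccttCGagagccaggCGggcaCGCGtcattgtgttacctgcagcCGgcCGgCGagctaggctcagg
Of its bases, 70.6% were G or C, and it held 14 CG dinucleotides. RefSeq promoter windows of 300 bases were found for all 9 genes, 10 windows in all because Dll1 had 2, and the Notch1 window lay at its second transcript start. The windows of Dll3 (chr7:28301736-28302035) and Jag2 (chr12:112929446-112929745) lay inside the gene and did not reach the gene start used here. Of the 2 Dll1 windows, chr17:15375774-15376073 lay inside the gene and chr17:15376883-15377182 just upstream of it. Neither held the Dll1 gene start. The RBPJ core TGGGAA, searched on both strands, occurred in 0 of the 10, beside 25.4% of 32619 windows of that length. This says only that these letters are not in the windows. GC content was highest at Jag2, with 86.0% and 63 CG dinucleotides, and lowest at Dll3, with 52.0% and 11, and Notch4 had the fewest CG dinucleotides, 5.

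Jag2, the second Jagged ligand, which acts in limb, palate and hair cell development, had the lowest pair of border scores of the 9 on average. It lies at chr12:112907819-112929776 on the minus strand, in a domain of 110 kb (chr12:112865001-112975000), and 2.30% of protein-coding genes lay in a shorter one. Its upstream border overlapped exons of Btbd6 and Brf1 and had a score of 0.220, and 5.80% of boundaries had a lower one. The downstream border overlapped an exon of Gpr132, a G protein-coupled receptor gene, and had a score of 0.438. Jag2 was the only member with no strong border. Its 3 companions were Nudt14, a nucleotide sugar hydrolase, 12.3 kb away, and Btbd6 and Gpr132 at the borders, 46.7 and 61.5 kb away.

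Both Jagged genes thus lay in domains with 3 other coding starts, and the 3 Delta-like genes in domains with 13 to 15. Among receptors the numbers ran from 1 at Notch2 to 10 at Notch4. The median over the 9 was 5 other starts, the same as over all protein-coding genes. None of the 9 was the only coding gene starting in its domain, beside 9.01% of all protein-coding genes. For Jag1, which starts inside a boundary interval, these counts rest on the side decided by the middle of the interval. The domain on its other side held no protein-coding start. Of the starts counted for Jag1, those of Mkks and AL731706.1 fall on the same base. The count for Jag2 rests on weak borders, and with strong boundaries alone its domain was 585 kb instead of 110 kb. With genes of every class counted, each had between 3 and 23 companions.

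Strong borders enclosed Notch1, Notch3, Dll1, Dll4 and Jag1 on both sides, which is 5 of 9 beside 38.1% of protein-coding genes. Notch2, Notch4 and Dll3 had one strong and one weak border. Of the 18 borders, all different, 13 were strong, beside 62.6% of the borders of all protein-coding genes. Their scores ran from 0.220 to 1.23 with a median of 0.667, beside 0.632 for the borders of all protein-coding genes and 0.533 for the whole list. The highest score in the list was 3.78, and the highest at a Notch gene, 1.23, ranked 869th of 7841. The upstream border had the higher score at 6 genes (Notch1, Notch2, Notch4, Dll1, Dll3, Dll4) and the downstream border at 3. The share over all protein-coding genes is not given here, and this split of 9 genes is not read as a trait of theirs. At the strong limit, the closest values were 0.514 (Jag1) and 0.539 (Dll1) above it and 0.438 (Jag2) and 0.407 (Dll3) below it.

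**Figure D3:**
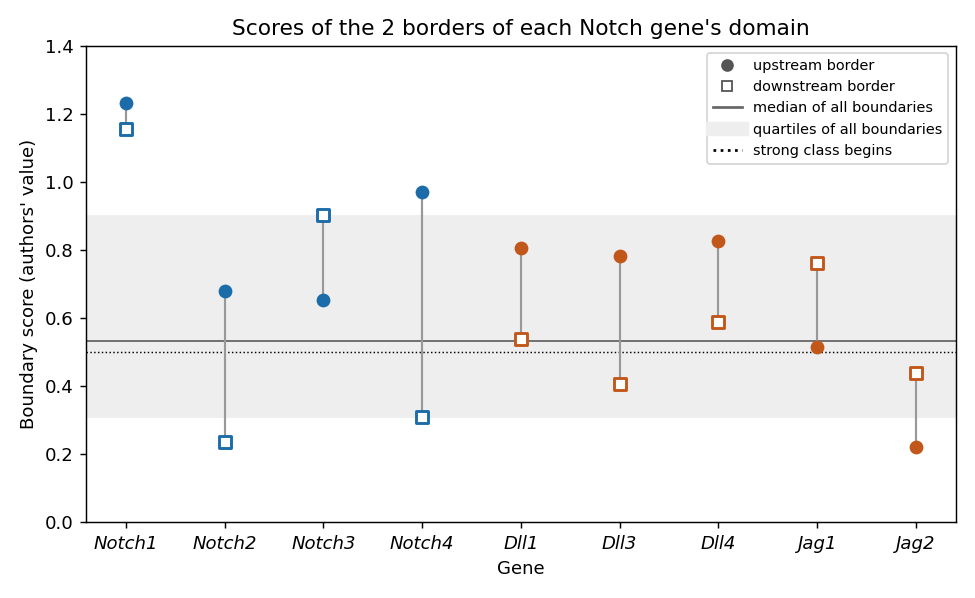
The authors' boundary score of the upstream (filled circle) and downstream (open square) border of each gene, with receptors in blue and ligands in orange; the band spans the quartiles of all boundaries, the line is their median and the dotted line marks where the strong class begins. Notch1 stands above the band on both sides, at 1.23 and 1.15, and Jag2 has both borders below the dotted line.

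The borders lay in exons about as often as those of other genes. Of the 18, 10 overlapped exons of protein-coding genes, beside 51.2% of the borders of all protein-coding genes. In introns lay 3, beside 9.68%, and outside protein-coding genes, here called intergenic, 5, beside 39.1%. Within 10 kb of 15 of the 18 a protein-coding gene started, which includes Notch4 and Jag1 themselves, beside 55.2% of the borders of all protein-coding genes. The 3 without one were the upstream border of Notch1 and the downstream borders of Dll1 and Dll3, where the last missed the limit narrowly, with Psmc4 at 10.1 kb. The 5 kb intervals had a median GC content of 45.7%, beside 44.6% for the borders of all protein-coding genes, and from 8 to 24 DpnII sites with a median of 12, beside 12.

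Sequence matches to the consensus of CTCF, the protein that halts cohesin at many boundaries, were present near some of these borders. The consensus of 12 bases was searched on both strands, without mismatch, in each interval with 10 kb on either side. Of the 18 borders, 8 held a match, beside 29.0% of the borders of all protein-coding genes and 11.0% of 25 kb tiles of the genome. There were 9 matches, and 7 of the 9 genes had one at either border, the exceptions being Notch2 and Dll3. The 29.0% counts single borders and is no background for this count of genes. The share of all protein-coding genes with a match at either border is not given here. Domains framed by a forward match on the left and a reverse match on the right, the inward arrangement often seen at loop ends, numbered 0 of 9, beside 2.85% of all protein-coding genes. A single side had an inward match at Notch1, Notch3 and Dll4. A match is not evidence of binding, and no binding data were analysed here.

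The 5 matches that lay inside a border interval are shown because the list itself places a border only to within 5 kb. Each is written 5′ to 3′ on the strand of the match, on GRCm38.p6, with the consensus match in capitals between 14 flanking bases on either side.
Notch3 downstream border, chr17:32027819-32027858, plus strand: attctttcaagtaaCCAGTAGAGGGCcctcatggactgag
Notch4 downstream border, chr17:34654064-34654103, plus strand: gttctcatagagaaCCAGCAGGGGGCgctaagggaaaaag
Dll4 downstream border, chr2:119665922-119665961, plus strand: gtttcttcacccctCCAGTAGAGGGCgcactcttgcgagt
Dll4 downstream border, chr2:119669234-119669273, minus strand: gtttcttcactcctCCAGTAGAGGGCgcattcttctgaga
Jag1 downstream border, chr2:136887030-136887069, minus strand: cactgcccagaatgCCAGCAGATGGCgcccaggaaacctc
The Dll4 border held a pair that pointed toward each other. The matches were 3.31 kb apart on opposite strands, and the shown stretches were identical at 35 of 40 bases, flanks included. These 40 include the 12 bases of the consensus, which both had to match, so part of the identity was set by the search. The start of Jag1, where the boundary runs through the promoter, had no match within 10 kb, and neither had the border beside the Notch4 start.

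Other genes of the pathway were read in the same way, from lists of 44 genes, all of which were found. Of these, 6 (13.6%) started within 10 kb of a boundary, beside 16.4% of all protein-coding genes, and 20 (45.5%) had strong borders on both sides, beside 38.1%. Their median domain was 280 kb. At this window and with all boundaries, the pathway as a whole lay near boundaries about as often as other genes. Windows of 25 and 50 kb gave 11 and 20 of 44, beside 27.8 and 46.3%. Fewer were counted with strong boundaries alone within 10 kb, 2 beside 10.6%, and inside an interval, 0 beside 5.07%. These other settings were chosen after seeing the data.

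**Figure D4:**
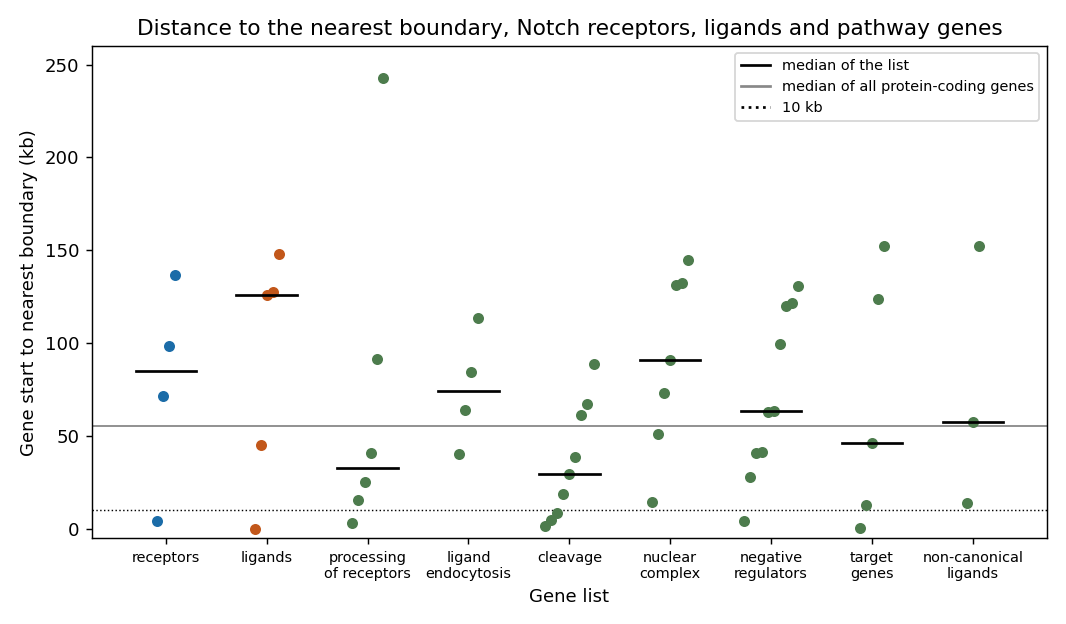
Distance in kb from each gene start to the nearest boundary for the receptors, the ligands and 7 lists of pathway genes; points are genes, black bars the median of each list, the grey line the median of all protein-coding genes and the dotted line 10 kb. Jag1 and Notch4 lie below the dotted line, as do 3 of 9 genes of receptor cleavage and 1 gene each of receptor processing, the negative regulators and the targets.

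Of the 6 genes near boundaries, 3 act in receptor cleavage, a list of 9. Among them were the γ-secretase genes Psen2 at 8.44 kb (score 0.909) and Aph1c at 4.73 kb (score 0.625). From other lists came Mfng, a glycosyltransferase that modifies Notch receptors (3.48 kb, score 0.203), Nrarp, a feedback inhibitor (4.24 kb, score 0.353), and the target gene Hes1 (0.617 kb, score 0.298). Of these boundaries, 4 of 6 were weak. None of the 7 genes of the nuclear complex, the 4 of ligand endocytosis or the 3 non-canonical ligand genes lay within 10 kb.

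The starts of the paralogs Aph1b and Aph1c, both subunits of γ-secretase, were parted by a strong boundary with a score of 0.625. That boundary lay inside the body of Aph1c, so it parted the starts and not the whole genes. This pair was noticed after the values were seen. The shortest domains belonged to Mfng (105 kb), the γ-secretase gene Ncstn (145 kb) and the target gene Heyl (150 kb), all longer than that of Notch4. The longest belonged to Adam17, a protease that cuts Notch (3165 kb), the target gene Hey2 (635 kb) and the coactivator gene Maml2 (620 kb). The domain of Adam17 had 16.7% unique sequence, and 287 of its 317 tiles of 10 kb were mostly repeated. Its length is therefore not comparable with that of the Notch genes, whose domains were between 80.3 and 96.0% unique.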

How the data were processed

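Domain boundaries come from in situ Hi-C of 2 replicates of a single group. The authors combined the replicates' contact lists into a matrix on GRCm38 and called boundaries on it, per the series' design text. No source used here names the caller or its settings. The deposited score of each boundary is the authors' value, used only to describe, rank and filter within this list. A combined matrix lets the deeper replicate weigh more, and the depth is unknown.

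Genes came from GENCODE M21 and sequence from GRCm38.p6, the build of the list, and 0 intervals lay outside its chromosomes. Domain length is the distance between facing border edges. Of 21755 genes, 227 lay beyond the last boundary of their chromosome and have no domain. Repeated sequence was measured from 31-base words taken every 32 bases (every 2048 for the genome value), compared with the primary assembly, and a tile of 10 kb counted as mostly repeated below 50% unique words. Scripts used Python 3.11.15, pandas 2.3.3 and pysam 0.24.0, and the assignment of borders was tested on simulated data. The 9 genes and the pathway lists were chosen with earlier results of these data known. Named were all 9 genes, their domain companions (beyond 8, the 6 nearest and those within 10 kb of a border), pathway genes within 10 kb of a boundary, and those with the 3 longest and 3 shortest domains. Alternatives were other windows, strong or higher-scoring boundaries alone, merged boundaries, other transcript starts, boundary midpoints and all gene classes. Values of a few of these genes are not reported here.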

Additional observations from a re-analysis of the deposited data

How the results depend on the processing

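Values that rest on weak boundaries moved when these were left out, since 4137 (strong) or 3921 (at or above the median score) of 7841 boundaries remained. With strong boundaries alone the median domain length of the 9 genes was 585 kb (475 kb for all protein-coding genes), and with boundaries at or above the median score it was 640 kb (510 kb), so under both the Notch genes stood above all genes and no longer below. The genes whose domains grew with strong boundaries alone were Notch2 (840 kb), Notch4 (685 kb), Dll3 (735 kb) and Jag2 (585 kb), while those of the other 5 stayed as they were. The nearest boundary of Jag2 was then 285 kb away. At or above the median score the boundary at the Jag1 start dropped out, so its domain was 1100 kb, 1 gene (Notch4) lay within 10 kb of a boundary (10.2% of all protein-coding genes) and 0 gene bodies were overlapped. Counting starts inside the interval alone left 1 gene, Jag1 (5.07% of all protein-coding genes). Without the 10 kb on either side, 4 borders held a CTCF consensus match, and with 25 kb on either side 12 did. The share over the borders of all protein-coding genes is given for the 10 kb window only, so these counts have no background beside them. For the pathway lists, windows of 0, 25 and 50 kb gave 0, 11 and 20 of 44 genes, beside 5.07, 27.8 and 46.3% of all protein-coding genes, and strong boundaries alone within 10 kb gave 2, beside 10.6%, settings that were chosen after seeing the data. Here a length counts as moved beyond 10 kb and a count beyond 1.5 times. No boundaries lay within 50 kb of each other, so merging changed nothing, and the most downstream coding transcript start changed no domain of the 9. That start did move the nearest boundary of Notch1 from 71.7 to 58.8 kb and that of Notch3 from 137 to 108 kb. No paired analysis was possible because the list comes from both replicates combined, and for the same reason neither replicate could be left out.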
